A study of Mus musculus with 16 samples.

Results

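The 10 genes described here, Clec7a, Itgax, Gpnmb, Cd52, Cst7, Lgals3, Spp1, Lyz2, Ank and Cybb, are the core genes of disease-associated microglia, a state first defined around amyloid plaques. They were taken by name from a table of 53850 genes, in which all 10 were found, and all 10 were among the 19594 genes tested. The samples were microglia sorted by flow cytometry from the cortex of young C57BL/6J mice of both sexes. For 1 week the mice had been fed control chow or chow that held PLX3397, which blocks the CSF1 receptor that keeps microglia alive. The 16 RNA-seq libraries formed 4 groups of 4: males on control chow, males on PLX3397, females on control chow and females on PLX3397. No genotype other than C57BL/6J entered any group, and the microglia of the treated mice are those still present after a week of a drug that removes microglia. The series asks why PLX3397 removes microglia unequally in the sexes, so the questions here are what each sex's remaining microglia did with these genes and whether the sexes differed. In sorted bulk RNA, a larger share of cells in a state and more RNA per cell cannot be told apart.

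Disease-associated microglia arise from homeostatic microglia in models of amyloid deposition, demyelination, ageing and neurodegeneration. They lower homeostatic genes, depend for part of the change on the lipid receptor TREM2, and turn on genes for lysosomal digestion, lipid handling and adhesion. The core genes fall into 3 roles. Clec7a (dectin-1), Itgax (CD11c), Gpnmb and Cd52 encode surface proteins of recognition and adhesion. Lgals3 (galectin-3), Cst7 (cystatin F), Lyz2 (lysozyme) and Spp1 (osteopontin) encode proteins that are secreted or kept in lysosomes. Ank encodes an exporter of ATP and pyrophosphate, and Cybb the catalytic subunit of the phagocyte NADPH oxidase. Several of them, among them Lyz2, Cybb, Itgax and Lgals3, are also made by neutrophils, monocytes or dendritic cells.

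The libraries carried microglial RNA: all 10 microglial markers examined were detected in each group, and their summed level was 2339030 to 2523340 in male controls and 2229220 to 2735180 in female controls. On PLX3397 all 10 fell in males and 8 of 10 in females, to sums of 1058150 to 1502360 and 1692430 to 1922730. Over all 19594 genes tested, 1474 were called lower in males and 523 in females. Values are normalised read counts as deposited, with library totals of 32641500 to 44162200. The Y-linked gene Ddx3y matched the labelled sex in all 16 libraries, at 2589 or more in males and 18.02 or less in females. Male control replicate 4 stood apart in Xist, the RNA of the inactive X chromosome, at 516 against 14.7 to 31.4 in the other male controls. Male PLX3397 replicate 3 stood apart in the neutrophil gene S100a8, at 14419 against 2020.5 to 3184 in the other males on PLX3397. Without both of these libraries 9 of the 10 members still rose in males, all but Ank, and the results that changed are given where they occur.

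In both sexes the core genes were higher on PLX3397. All 10 members rose in males and 9 of 10 rose in females, the exception being Spp1. In males every PLX3397 library lay above every control library for 10 of 10 members, and in females for 9 of 10. Among all 19594 genes tested, 4.16% were called higher in males and 2.67% in females (limma, Benjamini-Hochberg adjusted p under 0.05). Groups that did not overlap, with PLX3397 higher, made up 7.71% of all genes in males and 5.13% in females. The median change of the members was 3.38 in males and 2.38 in females on the log2(value + 1) scale, beside 0.021 and -0.0032 over all genes tested. Changes ranged from 0.50 for Ank to 6.03 for Lgals3 in males and from 0.81 for Cd52 to 7.00 for Lgals3 in females. The pseudocount of 1 makes this scale understate changes of genes with low values. The genes were chosen with results of these data known, so these counts describe them and are no independent evidence of a direction. Over all genes the male calls were 815 higher and 1474 lower, and with equal library totals 1348 and 917, while the members kept their direction in both sexes under all 28 alternatives.

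**Figure D1:**
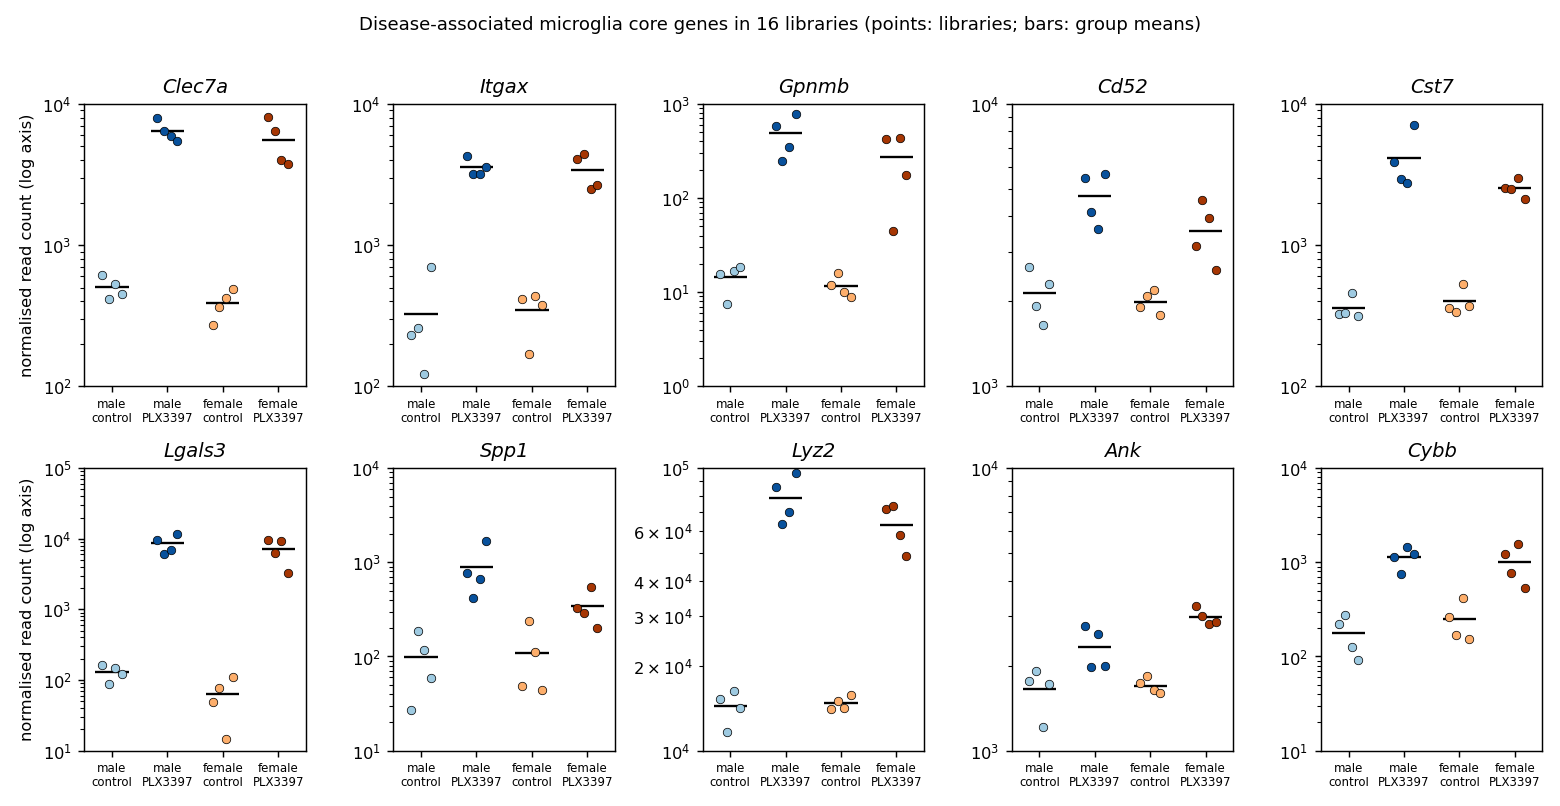
Normalised read count of each of the 10 core genes (y axis, log scale) in the 16 libraries, grouped by sex and chow on the x axis; points are libraries and bars are group means. Treated libraries lie above the controls of their sex for every gene except Spp1 in females, where female PLX3397 replicate 4 (198) lies below female control replicate 2 (236).

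**Figure D2:**
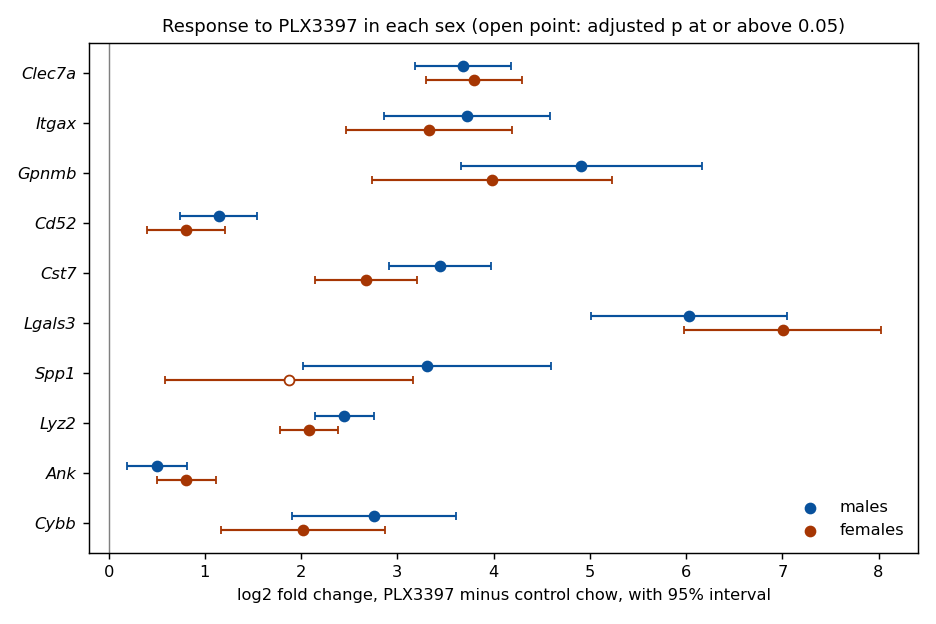
Change of each core gene on PLX3397 against control chow in males (blue) and females (red), as a log2 difference with its 95% interval from limma (4 libraries a group). Filled points passed an adjusted p of 0.05; the open point is Spp1 in females, and Lgals3 had the largest change of the 10 in both sexes.

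Because the members moved together, their promoters were searched for 4 short motifs on both strands, from 250 bases before to 50 bases after the annotated start. RefSeq promoters of build GRCm38.p6 were at hand for 9 of 10 members, all but Cd52. AP-1 is a factor family induced by many stimuli. A broad form of its motif, TGANTCA with any middle letter N, was in 4 of 9 members (Itgax, Cst7, Gpnmb and Cybb). Counted the same way, by gene over any of its annotated promoters, it was in 8.97% of all 27025 genes. The core of PU.1, the factor that sets myeloid identity, written GAGGAA, was in 4 of 9 (Clec7a, Cybb, Spp1 and Ank) and in 31.3% of all genes. The E-box CACGTG, read by MITF and its relatives, and a motif of NF-kB were in none of the 9, beside 8.09% and 1.63% of all genes. The 4 promoters with AP-1 letters are shown, and that of Clec7a for its PU.1 core, since Clec7a had the smallest p-value of all genes in females. Each runs 5′ to 3′ on the gene's strand from 150 bases before the start, with a further 20 bases where a match reaches past it, and capitals mark the motif letters.
Itgax (chr7:128129400-128129549, plus strand): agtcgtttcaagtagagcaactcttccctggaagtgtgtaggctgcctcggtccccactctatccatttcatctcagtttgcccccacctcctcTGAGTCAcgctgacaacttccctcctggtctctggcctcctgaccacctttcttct
Cst7 (chr2:150570265-150570434, plus strand): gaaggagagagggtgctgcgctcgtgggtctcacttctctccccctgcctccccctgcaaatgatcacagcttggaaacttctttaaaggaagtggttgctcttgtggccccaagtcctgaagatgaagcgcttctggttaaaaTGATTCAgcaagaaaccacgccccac
Gpnmb (chr6:49036368-49036537, plus strand): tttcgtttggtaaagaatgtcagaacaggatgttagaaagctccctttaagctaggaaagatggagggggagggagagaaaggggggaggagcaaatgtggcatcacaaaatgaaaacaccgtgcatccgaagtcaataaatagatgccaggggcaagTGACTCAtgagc
Cybb (chrX:9469305-9469474, minus strand): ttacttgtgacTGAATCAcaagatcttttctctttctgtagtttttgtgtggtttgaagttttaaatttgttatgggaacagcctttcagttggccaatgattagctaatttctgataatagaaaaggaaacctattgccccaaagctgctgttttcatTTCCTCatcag
Clec7a (chr6:129472780-129472929, minus strand): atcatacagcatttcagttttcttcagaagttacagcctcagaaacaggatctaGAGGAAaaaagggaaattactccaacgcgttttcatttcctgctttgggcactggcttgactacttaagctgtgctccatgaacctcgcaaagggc
In Itgax the AP-1 letters begin at position -56 from the start, in Cst7 at -6, in Cybb at -139 and in Gpnmb at 9 past it. Their middle letter was G in Itgax, C in Gpnmb, T in Cst7 and A in Cybb. Forms with a fixed middle letter were not counted. The PU.1 core of Clec7a begins at -96 from the start used here, or at -90 from another annotated start. Cybb alone of these 9 genes held both motifs, its PU.1 core standing as the reverse complement at position 10. Matches are letters in a window and were not tested as binding sites.

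Among the surface proteins, Clec7a, the receptor for fungal beta-glucans that also marks plaque-associated microglia, rose steeply in both sexes. Clec7a read 613, 417, 527 and 453 in the 4 male controls and 7999, 6482, 5899 and 5468 in males on PLX3397. Female values of Clec7a were 272, 368, 419 and 486 on control chow and 8014, 6423, 3999 and 3757 on PLX3397. Treated females split into a higher pair, replicates 1 and 2, and a lower pair, and even the lower pair lay far above every control. The group mean of Clec7a was 12.9 times the control mean in males and 14.4 times in females. The log2 changes were 3.68 ± 0.236 (limma adjusted p = 1.38e-07) and 3.80 ± 0.236 (2.20e-07), and by p-value Clec7a ranked 5th of 19594 genes in males and 1st in females.

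Itgax, the alpha chain of the integrin CD11c/CD18 that is used to mark dendritic cells and activated microglia, was less even in controls. Itgax read 229.5, 259, 123 and 695 in male controls and 4267, 3197, 3196 and 3569 on PLX3397. Female values of Itgax were 418, 168, 438 and 375 on control chow and 4040.1, 4445, 2503 and 2678 on PLX3397. Male control replicate 4, at 695, was the highest of the 8 controls, and no control reached the lowest treated library. Itgax rose by 3.72 ± 0.407 in males (limma adjusted p = 1.48e-05) and 3.33 ± 0.407 in females (8.98e-05). Its exons share 8.02% of their 50-base words with Itgad, a neighbouring integrin gene, whose own level stayed at 0 to 33.1 in all 16 libraries.

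Gpnmb, a transmembrane glycoprotein of lysosomes and phagosomes, was close to absent in controls. In male controls Gpnmb read 15.7, 7.41, 16.7 and 18.7, and in males on PLX3397 580.5, 246, 350.4 and 789. Female values of Gpnmb were 11.98, 15.96, 10.1 and 8.85 on control chow and 425, 44.8, 431 and 178 on PLX3397. By a rough estimate from the spacing of low values, the control values stand for about 7.77 to 32.3 reads a library. Female PLX3397 replicate 2 was far lower than the other treated females, yet above every control in normalised value. That value stands for about 23.9 reads, within the read range of the controls, in the library of lowest estimated depth (22248700 reads). Gpnmb rose by 4.91 ± 0.591 in males (limma adjusted p = 3.74e-05) and 3.98 ± 0.591 in females (0.000538), which ranks it below Lgals3 alone among the members.

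Cd52, a small glycosylated antigen on the surface of leukocytes, was already abundant in control microglia and rose little. Cd52 read 2652.5, 1931, 1654 and 2297 in male controls and 5481, 4127, 3606 and 5659 in males on PLX3397. Female values of Cd52 were 1904, 2081, 2201 and 1789 on control chow and 3149, 4553, 3943 and 2579 on PLX3397. Groups did not overlap in either sex, but the lowest treated female (2579) was not far above the highest female control (2201). The change was 1.14 ± 0.191 in males (limma adjusted p = 0.000723) and 0.81 ± 0.191 in females (0.0182). The female call was lost without female control replicate 1 (limma adjusted p = 0.0517), female control replicate 4 (0.0562), female PLX3397 replicate 2 (0.0683) or female PLX3397 replicate 3 (0.0531). Cd52 shares 8.89% of its 50-base words with Crybg2, which read 56.3 to 163 in all libraries.

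None of the signalling and pairing partners of these receptors was called higher. Of 6 genes of the Clec7a pathway (Syk, Card9, Bcl10, Malt1, Plcg2 and Vav1) 0 rose in either sex, 2 fell in males and 0 fell in females. Over all 19594 genes tested, 815 were called higher and 1474 lower in males, and 524 and 523 in females. Calls of this and the later partner lists are given for the values as deposited only. With equal library totals the median male change of all genes moved by 0.156 and the female median by -0.0052. No gene was called for a difference between the responses, so a call in 1 sex alone does not show that the sexes differed. Vav1, the exchange factor that acts on Rac, fell by 0.46 ± 0.0941 in males (limma adjusted p = 0.00355), and its female change was -0.31 ± 0.0941 (0.0734). Plcg2, the phospholipase that acts after Syk, fell by 0.43 ± 0.129 in males (limma adjusted p = 0.0390, groups overlapping). Of 4 chains of the CD18 integrins besides Itgax (Itgb2, Itgam, Itgal and Itgad), Itgam, the CD11b chain that pairs with the same beta chain as CD11c, fell in both sexes and the other 3 were not called. Itgam went from 47058 ± 3136 to 22677.5 ± 5628 in males and from 54387 ± 2344 to 28438 ± 4020.3 in females (mean ± SD, n = 4). These are log2 changes of -1.08 ± 0.137 (limma adjusted p = 5.89e-05) and -0.94 ± 0.137 (0.000450). The shared beta chain gene Itgb2 read 27356 ± 1203 and 23975 ± 4292 in males and 29561 ± 3711 and 28069 ± 1803 in females.

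Of the secreted proteins Lgals3, a galactoside-binding lectin that gathers on damaged lysosomes and on phagocytosed material, changed most. Lgals3 read 161, 88.4, 149 and 120.2 in male controls and 9689, 6071, 6913 and 11869.6 in males on PLX3397. Female values of Lgals3 were 48.1, 77.9, 14.8 and 112 on control chow and 9657, 6245, 9364 and 3296 on PLX3397. The lowest treated library in either sex was 3296, in female replicate 4, against a highest control of 161. The Lgals3 mean on PLX3397 was 66.6 times the control mean in males and 113 times in females. Its log2 change was 6.03 ± 0.482 in males (limma adjusted p = 7.58e-07) and 7.00 ± 0.482 in females (4.29e-07), 7th and 5th in size of all 19594 genes. Female controls reached down to 14.8, whereas no male control was below 88.4.

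Cst7, the inhibitor of lysosomal cysteine proteases known as cystatin F, rose in both sexes with little spread among controls. Cst7 read 327, 333, 459 and 315 in male controls and 3907, 2935, 2741 and 7090.03 in males on PLX3397. Female values of Cst7 were 359, 334, 531 and 373 on control chow and 2547, 2503, 2971 and 2105 on PLX3397. Male PLX3397 replicate 4 was the highest of all 16 libraries, and the 4 treated females stayed close together. The change was 3.44 ± 0.250 in males (limma adjusted p = 3.20e-07) and 2.68 ± 0.250 in females (6.73e-06).

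Lyz2, the lysozyme of macrophages, had the highest level per kilobase of exon in every group and the smallest SE of the members. Lyz2 read 15254, 11655, 16232 and 14171 in male controls and 85473, 63628, 69781 and 95852 in males on PLX3397. Female values of Lyz2 were 14025, 15009, 14105 and 15759.8 on control chow and 71655.5, 73401, 57795 and 48982 on PLX3397. Controls of both sexes stayed within 11655 to 16232, and no treated library was below 48982. Lyz2 rose by 2.45 ± 0.143 in males (limma adjusted p = 5.89e-08, 3rd of all genes) and 2.08 ± 0.143 in females (4.29e-07). It shares 15.4% of its 50-base words with Lyz1, the lysozyme of Paneth cells, so the counting could split reads between them. Lyz1 itself was under the minimum for testing, with 0 to 1.55 in male controls, 2.59 to 22.6 in males on PLX3397, 0 in all female controls and 4.70 to 106 in females on PLX3397.

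Spp1, the secreted phosphoprotein osteopontin, had the largest SE of the members. Spp1 read 26.9, 188, 117 and 58.96 in male controls and 769.9, 418, 666 and 1674 in males on PLX3397. Female values of Spp1 were 48.4, 236, 112 and 43.7 on control chow and 329.9, 289.7, 547 and 198 on PLX3397. Male groups did not overlap, while in females control replicate 2 lay above PLX3397 replicate 4. Spp1 rose in males by 3.31 ± 0.609 (limma adjusted p = 0.00160), and its female difference of 1.87 ± 0.609 did not pass (0.0946). Without female control replicate 2 the female difference was 2.35 and passed (limma adjusted p = 0.0345). Exons of Spp1 share 11.6% of their 50-base words with Gm42793, a predicted gene at no more than 5.13 in any library.

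Partners of the secreted proteins moved unevenly. Their counts stand beside 815 genes called higher and 1474 lower of all 19594 in males, and 524 and 523 in females. Of 7 receptors for osteopontin, Cd44, the hyaluronan receptor that also binds osteopontin, rose in both sexes. Cd44 read 0 to 123 in male controls and 194 to 337 in males on PLX3397, and 0 to 29.9 and 90.1 to 323 in females. Its changes, 4.25 ± 1.22 (limma adjusted p = 0.0316) and 6.28 ± 1.22 (0.00471), rest on controls that include libraries at 0 and depend on the pseudocount. In males 2 integrin chains of that list fell, with Itgb5 at -0.51 ± 0.109 (limma adjusted p = 0.00479), and none fell in females. Of 8 cystatins and their target proteases 2 rose and 2 fell in males, and 3 rose and 0 fell in females. Cstb, the cytosolic cystatin B, rose by 1.24 ± 0.172 in males (limma adjusted p = 0.000137) and 1.28 ± 0.172 in females (0.000233). Ctsh, the aminopeptidase cathepsin H, rose by 0.45 and 0.59. Of 5 other galectin genes 2 rose in both sexes, 1 fell in males and 0 fell in females. Lgals1, galectin-1, went from 82.1 ± 23.6 to 466 ± 153 in males and from 83.5 ± 26.7 to 403 ± 191 in females (mean ± SD, n = 4). That is a rise of 2.48 ± 0.367 (limma adjusted p = 0.000252) and 2.17 ± 0.367 (0.00153). Lgals3bp, a secreted glycoprotein bound by galectin-3, rose by 1.21 and 0.97.

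Ank, the membrane protein that exports ATP and thereby pyrophosphate, had the smallest change of the 10 in males. Ank read 1770.4, 1907, 1212 and 1717 in male controls and 2769, 1981, 2579 and 1987 in males on PLX3397. Female values of Ank were 1734, 1834, 1634 and 1594 on control chow and 3256, 2992, 2799 and 2863 on PLX3397. Treated males formed a lower pair, replicates 2 and 4, and a higher pair, and the lower pair was just above the highest male control (1907). Treated females lay within 2799 to 3256, all above every male library. The change was 0.50 ± 0.147 in males (limma adjusted p = 0.0355) and 0.81 ± 0.147 in females (0.00280). The male call was lost in 7 of 28 alternatives, with a limma adjusted p of up to 0.135, among them leaving out male control replicate 3 (0.113), male control replicate 4 (0.0539), male PLX3397 replicate 1 (0.106) or male PLX3397 replicate 3 (0.105).

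Cybb, the gp91phox subunit that carries electrons across the phagosomal membrane, lies on the X chromosome. Cybb read 219, 278, 126 and 92.2 in male controls and 1147, 749.99, 1449 and 1214 in males on PLX3397. Female values of Cybb were 263, 171, 416 and 152 on control chow and 1224, 764, 1556 and 531 on PLX3397. No control reached the lowest treated library of its sex, although female PLX3397 replicate 4 was only moderately above female control replicate 3. Cybb rose by 2.76 ± 0.402 in males (limma adjusted p = 0.000215) and 2.02 ± 0.402 in females (0.00571).

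Among the other genes of the oxidase, which include the small GTPases Rac1, Rac2 and Rap1a, Cyba rose in both sexes and 3 fell in males. Of 6 examined (Cyba, Ncf1, Ncf4, Rac1, Rac2 and Rap1a) 1 rose and 3 fell in males, and 1 rose and 0 fell in females. Over all 19594 genes tested, 815 rose and 1474 fell in males, and 524 rose and 523 fell in females. Cyba, the p22phox chain that pairs with the product of Cybb in the membrane, rose by 0.62 ± 0.132 in males (limma adjusted p = 0.00464) and 0.84 ± 0.132 in females (0.000849). Rac1, the small GTPase that switches the oxidase on, fell by 0.61 ± 0.117 in males (limma adjusted p = 0.00228) and differed by -0.11 ± 0.117 in females (0.706). The cytosolic organiser Ncf1 read 23184 ± 1629.6 and 19419.5 ± 2284 in males and 25220.4 ± 3288 and 22613 ± 2945 in females. On control chow and PLX3397 in males, Rac2 read 7340 ± 638 and 4595 ± 733, and Rap1a 4649 ± 447 and 3181 ± 498. Ncf4 read 5156 ± 639 and 6193 ± 986 there. Of the pyrophosphate genes, Enpp1, which makes pyrophosphate from ATP, rose in males by 1.09 ± 0.284 (limma adjusted p = 0.0188), with groups that overlapped, and Alpl was under the minimum for testing. Of the 4 MiT transcription factors, which control lysosomal genes and Gpnmb, 2 rose and 1 fell in males, and 1 rose and 0 fell in females. Mitf went from 731 ± 104 to 1816 ± 278 in males (log2 change 1.31 ± 0.166, limma adjusted p = 5.83e-05) and from 729 ± 139 to 1232 ± 153 in females (0.77 ± 0.166, 0.00979). Tfec, a relative of Mitf, read 0 to 7.58 in male controls and 40.2 to 265 in males on PLX3397 (limma adjusted p = 0.00367).

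Per kilobase of exon, so that genes can be compared with each other, Lyz2 led in all 4 groups. Its level was 10887.5 ± 1498 per kilobase in male controls and 11189 ± 624 in female controls (mean ± SD, n = 4). Cd52 came next in controls, with 1798 ± 366 in males and 1679.9 ± 154 in females. Ank and Cst7 followed at 457 ± 84.2 and 364 ± 68.6 in male controls, within their spread, and Clec7a came 5th in every group. Lgals3, Itgax and Spp1 lay within their spread of one another in male controls, at 69.8 ± 17.4, 68.00 ± 52.6 and 59.3 ± 42.9. On PLX3397 Lgals3 moved from the 6th to the 2nd place in males and from the 9th to the 2nd in females. In males on PLX3397 it did not differ beyond its spread from Cst7 and Cd52, the levels being 4648 ± 1428, 4227 ± 2042 and 3975 ± 849.8 per kilobase. In females on PLX3397 Lgals3 stood at 3843 ± 1610.4, with Cd52 at 2996 ± 732 and Cst7 at 2567 ± 359 within that spread. Gpnmb stayed last in every group, rising from 2.24 ± 0.762 to 75.5 ± 37.3 per kilobase in males and from 1.80 ± 0.476 to 41.4 ± 29.3 in females.

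As a share of the whole library the 10 members together held 0.0485% ± 0.00474 of the signal in male controls and 0.302% ± 0.0317 in males on PLX3397 (SD, n = 4). Female libraries gave 0.0480% ± 0.00423 on control chow and 0.214% ± 0.0419 on PLX3397. Lyz2 alone was 67.3% to 78.7% of the members' signal in each library, so this share mainly follows that gene.

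Treated libraries differed in how far the members had gone up. Of the 10, 6 were highest in male PLX3397 replicate 4, 3 in replicate 1 and 1, Cybb, in replicate 3. Replicate 2 of the treated males was lowest for 6. Among treated females replicate 4 was lowest for 7 members and highest for none, and replicates 1 and 2 were highest for 3 each and replicate 3 for 4. Gpnmb departed most from a group's own log2 mean, by -2.11 in female replicate 2, 1.13 in female replicate 3 and 1.11 in female replicate 1. Next came Spp1 at 1.11 in male replicate 4 and Lgals3 at -0.99 in female replicate 4. Clec7a, Itgax, Cd52, Lyz2 and Ank departed by at most 0.60 from their group mean in all 8 treated libraries.

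**Figure D3:**
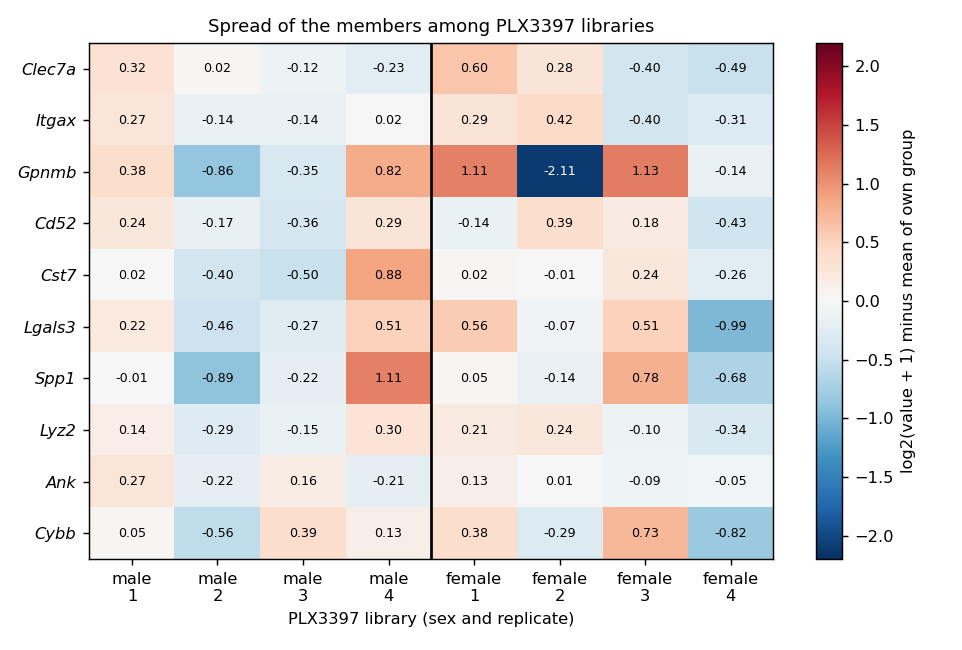
Departure of each core gene from the mean of its own group, on the log2(value + 1) scale, in the 8 PLX3397 libraries (columns: sex and replicate; rows: genes; red above the mean, blue below). Male replicate 4 is above its group mean for 8 of 10 genes and female replicate 4 is below it for all 10, while Gpnmb in female replicate 2 has the widest departure (-2.11).

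Between the sexes, no member was called different on either chow or in the size of its response. On control chow 0 of 10 members were called by limma, beside 0.0663% of all genes, and with limma's voom weights the count was also 0, beside 0.0357%. At an unadjusted p under 0.05 there was 1 of 10, beside 5.19% of all genes. It was Lgals3, whose female minus male difference was -1.31 (95% interval -2.33 to -0.29, limma adjusted p = 0.924). On PLX3397 0 of 10 were called, beside 5.43% of all genes. There, 4 of 10 had an unadjusted p under 0.05 (Ank, Cst7, Lyz2 and Cd52), beside 22% of all genes. With voom weights 2.4% of all genes were called, and 3 members passed, Lyz2 at -0.52 (limma adjusted p = 0.0279), Cd52 at -0.67 (0.0412) and Cst7 at -0.83 (0.0415). Lyz2 also passed with equal library totals (-0.52, limma adjusted p = 0.0442), where 2.91% of all genes did, and with quantile normalisation (-0.61, 0.0254), where 2.37% did.

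On PLX3397 the female minus male estimate was below 0 for 9 of 10 members, all but Ank, and for 51.6% of all genes tested. The estimate was for Spp1 -1.28 (95% interval -2.56 to 0.0135), for Gpnmb -1.18 (-2.43 to 0.0705), for Cst7 -0.62 (-1.15 to -0.0907), for Cd52 -0.42 (-0.82 to -0.0106), and for Lyz2 -0.32 (-0.63 to -0.0191). Their limma adjusted p-values ran from 0.160 for Cst7 to 0.255 for Gpnmb. Clec7a differed by -0.28 (-0.78 to 0.22), Itgax by -0.0925 (-0.95 to 0.77), Lgals3 by -0.34 (-1.36 to 0.68) and Cybb by -0.24 (-1.09 to 0.61). The sign turned for Itgax without female PLX3397 replicate 3 or 4, to 0.0422 at the highest, and for Cybb without female PLX3397 replicate 4, to 0.0308. Ank ran the other way at 0.37 (0.0576 to 0.68, limma adjusted p = 0.154), and its 4 treated female libraries lay above all 4 treated males, as did 6.76% of all genes. The scaling bears on these values: equal library totals moved the median of all genes in this comparison by -0.196 and turned the calls from 838 higher and 226 lower in females to 196 higher and 375 lower.

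The difference between the responses, female minus male, was called for 0 of 10 members, and for 0% of all 19594 genes. At an unadjusted p under 0.05 there was 1 member, Cst7, beside 2010 of all genes (10.3%), and with voom weights no member and 0% of all genes passed. The Cst7 estimate was -0.77 (95% interval -1.52 to -0.0193, limma adjusted p = 0.472). For Spp1 the difference was -1.44 (-3.26 to 0.38), so its call in males alone does not show that the sexes differed. Lyz2 gave -0.37 (-0.80 to 0.0578), Gpnmb -0.93 (-2.70 to 0.84), Cybb -0.74 (-1.95 to 0.46), Itgax -0.39 (-1.61 to 0.83) and Cd52 -0.34 (-0.91 to 0.24). Estimates above 0 were those of Clec7a at 0.12 (-0.59 to 0.82), Ank at 0.31 (-0.13 to 0.75) and Lgals3 at 0.97 (-0.47 to 2.41). The sign for Clec7a turned with quantile normalisation, equal library totals and voom weights, and without female control replicate 1 or female PLX3397 replicate 1, to -0.0852 at the lowest. The intervals leave room for differences of more than 1 log2 unit in Itgax, Gpnmb, Cst7, Lgals3, Spp1 and Cybb.

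**Figure D4:**
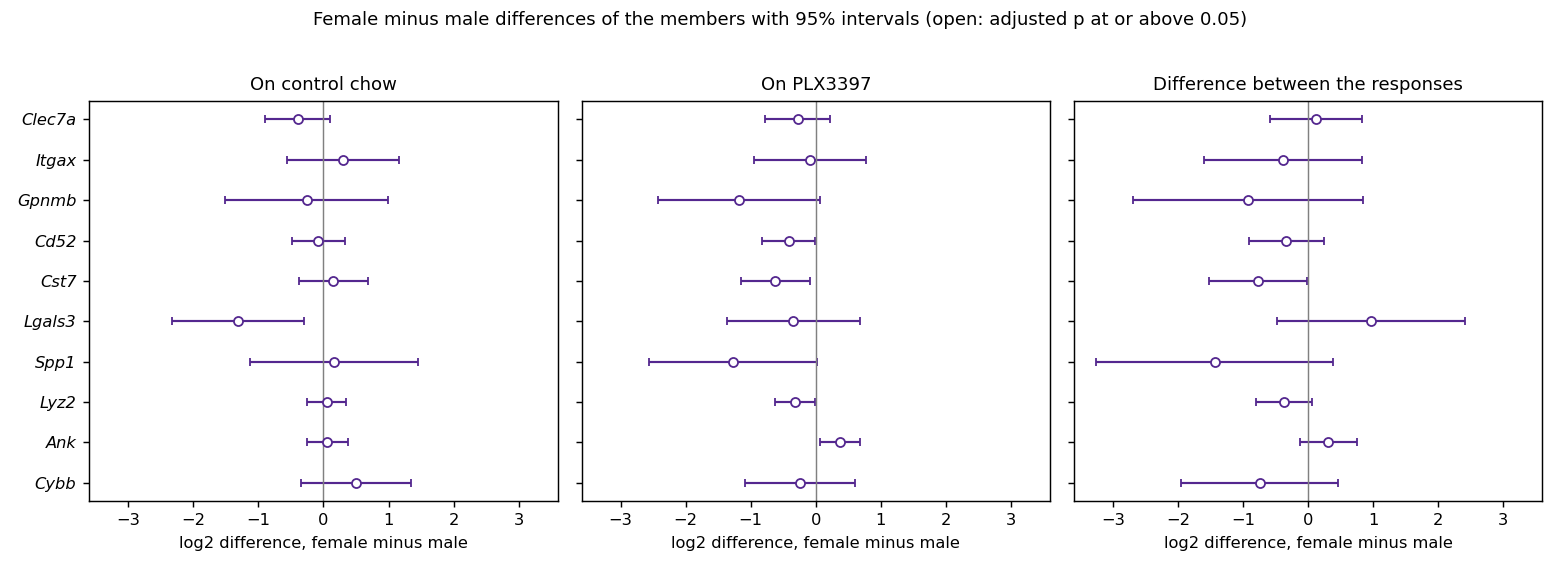
Female minus male difference of each core gene on control chow (left), on PLX3397 (middle) and between the responses to PLX3397 (right), as log2 values with 95% intervals from limma (4 libraries a group). All points are open because none passed an adjusted p of 0.05; on PLX3397 9 of 10 points lie below 0.

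Markers of other cells moved with some of these groups. Of 12 neutrophil markers, 10 could be tested, and 7 rose in males and 5 in females, while 7 were lower in females than in males on PLX3397. Over all 19594 genes tested, 815 were called higher and 1474 lower in males, and 524 and 523 in females. Between the sexes on PLX3397, 838 of all genes were called higher and 226 lower in females. In that comparison 9 of the 10 microglial markers were higher in females, with a median difference of 0.51 over the list, and 4 to 6 were with voom weights and the 3 other scalings. With voom weights 0 neutrophil markers were called in the female response. On control chow 4 of the 10 neutrophil markers tested were lower in females than in males, beside 0.0663% of all genes called. With voom weights 0 were called there. Csf3r, high in all 16 libraries, was 81.2% of that list's signal. Without it the neutrophil sum was 496 to 3389 in male controls, 10006 to 70821 in males on PLX3397, 197 to 271 in female controls and 980 to 3285 in females on PLX3397. Cxcr2 alone read 197 to 266 in female controls and made up most of their sum. Of that list Ly6g, Elane and Mpo were at 0 in all male controls. In the same male controls S100a8 read 35.8 to 687, S100a9 102 to 829, Ltf 51.3 to 562 and Ngp 27.0 to 1129. In all female controls Ly6g, Elane, Mpo, S100a8, S100a9, Retnlg, Ltf and Mmp8 were at 0. The highest neutrophil sum was that of male PLX3397 replicate 3, which was the highest treated male for Cybb only. Without that library Cybb changed by 2.63 in males (limma adjusted p = 0.00119) and Lyz2 by 2.50 (3.14e-07). Of 8 monocyte markers, 6 could be tested and 0 were called in either response, with sums of 630 to 1188 in male controls, 1097 to 6724 in males on PLX3397, 681 to 869 in female controls and 713 to 1035 in females on PLX3397. Border-associated macrophage markers fell, 6 of 11 in males and 4 of 11 in females. The part of these cells in the members' changes, and in the female minus male estimates on PLX3397, was not tested.

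Other genes of the disease-associated state had a smaller median change. Of 23 further genes 17 rose and 0 fell in males and 18 rose and 0 fell in females, with medians of 0.94 and 1.13. Over all genes tested 4.16% were called higher in males and 2.67% in females. Lilrb4a, an inhibitory receptor of myeloid cells, rose by 5.89 ± 0.435 in males (limma adjusted p = 3.41e-07) and 5.06 ± 0.435 in females (2.98e-06). Cd63, a tetraspanin of late endosomes, rose by 1.74 ± 0.141 and 1.99 ± 0.141, and Ctsb, the lysosomal protease cathepsin B, by 1.45 ± 0.129 and 1.55 ± 0.129. Axl, a receptor for the uptake of dying cells, rose by 2.21 ± 0.200 and 1.61 ± 0.200. Trem2, the lipid receptor on which part of this state depends, did not pass in males at 0.12 ± 0.119 (limma adjusted p = 0.618). In females Trem2 passed narrowly at 0.42 ± 0.119 (limma adjusted p = 0.0482), with groups that overlapped. Under the alternatives 17 to 20 of the 23 genes were called in males and 16 to 18 in females. The difference between the responses was called for 0 of the 23 genes, Trem2 among them. In females against males on PLX3397, 4 of the 23 were called, beside 5.43% of all genes. Cd9, Hif1a and Serpine2 were higher in females by 0.54, 0.65 and 0.55, and Igf1, a growth factor, was lower, at -2.04 ± 0.498 (limma adjusted p = 0.0284). These 4 were named after their values were seen. With the fit made on the compared groups alone none of the 4 passed.

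**Figure D5:**
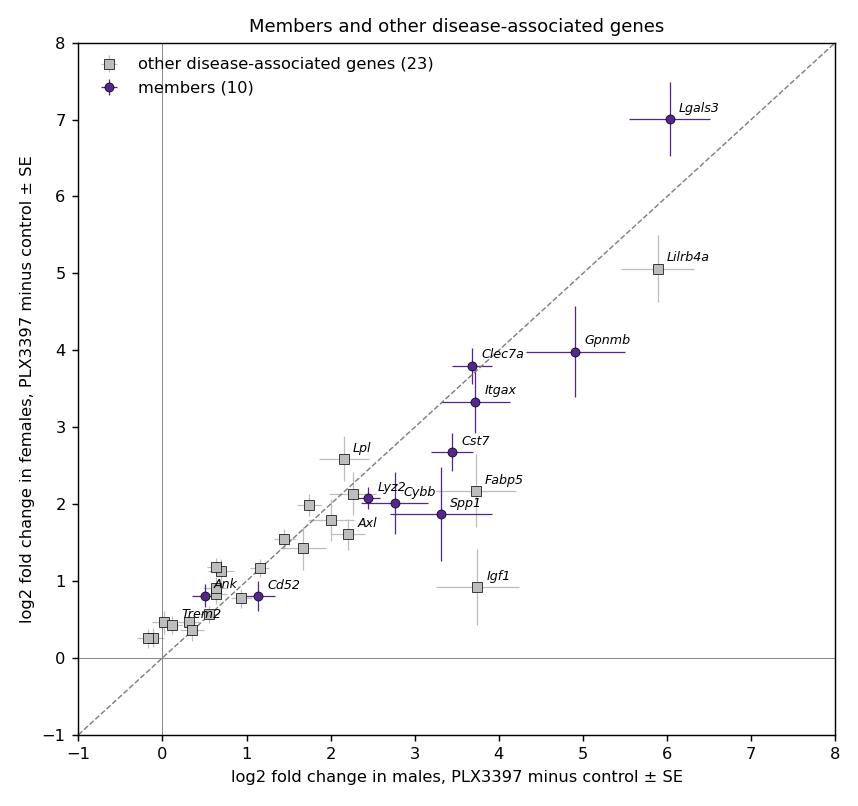
Log2 change on PLX3397 in males (x axis) against females (y axis) for the 10 core genes (purple) and 23 other disease-associated genes (grey squares), each with its SE; the dashed line marks equal changes. Both axes use the same 16 libraries' fit, with separate controls for each sex; Lgals3 stands at the top (6.03 and 7.00), and Igf1 lies farthest below the line.

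The tested gene whose profile over the 16 libraries was most like each member's was found among 10352 candidates with a mean of at least 100, by the root mean square difference of centred log2 values. For Clec7a it was Gpr162 (0.351), for Itgax Fam20c (0.526), for Gpnmb Lilr4b (0.779) and for Cd52 Mbp (0.237). For Cst7 it was the chemokine gene Ccl4 (0.432), for Lgals3 the macrophage elastase gene Mmp12 (0.977), and for Lyz2 Rell1 (0.271). For Ank it was Tpd52 (0.160), for Cybb Gla (0.530), and for Spp1 another member, Cst7 (0.810). Smaller values mean closer profiles, and the smallest were those of Ank and Cd52, the members with the smallest changes. Among all pairs of members, Cd52 and Ank were closest (0.424), followed by Cst7 and Lyz2 (0.495).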

How the data were processed

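Per the labels' protocols, total RNA of sorted cortical microglia was amplified as cDNA by a SMARTer low-input kit and made into Nextera XT libraries. Named in the submitters' processing notes, without roles, are the build GRCm39 and the tools Salmon 1.5.2, Subread, featureCounts 2.0.1, STAR 2.7.9a and bcl2fastq 2.19.1. The deposited table gives a signal per gene and library, read counts normalised by the authors per the file's name; the formula, the annotation release and the use of strand are not given in the sources used here. The spacing of low values, 0.517 to 1.88 by library, gives a rough estimated depth of 22248700 to 78500600 reads. Some values lie below that spacing, such as Itgal at 0.315 in a male control. The spacing is therefore not exactly 1 read, and all read numbers given here are approximate. Whole reads could not be recovered, so the main tests used no count model or counting intervals, and SE and SD give the precision. The alternative with voom weights was fitted to values divided by this spacing, so its calls rest on the same rough estimate. Nothing in the labels says that the 4 samples in a group came from separate animals, so p-values measure the spread between these samples, which may be technical. The gate of the sort is not given either.

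A gene was tested if 4 or more of the 16 libraries reached a value of 10 (19594 of 53850 genes). Tests were run by limma 3.58.1 under R 4.3.3, on log2(value + 1). The fit had 1 mean per group over all 16 libraries and a trend on intensity. They were two-sided over 5 comparisons, each adjusted by Benjamini-Hochberg over all genes tested, and a gene was called at an adjusted p under 0.05. The fit was tested on simulated data with independent noise for each gene and no shift between libraries. That test cannot speak to effects of scaling. Symbols, exon lengths, shared 50-base words and RefSeq promoters came from tables of build GRCm38, which matched 51029 of the identifiers. The alternatives covered pseudocount, filter, scaling, weights, a replicate block, separate fits and leaving out libraries. The members, partner lists, markers and alternatives were chosen with earlier results of these data known. Beside the 10 members the text names up to 2 called genes of each partner list and the 4 other disease-associated genes with the smallest p in either response, with Trem2 and the gene nearest in profile to each member. Itgb2, Ncf1, Ncf4, Rac2 and Rap1a, and the 4 genes called between treated sexes, were picked after their values were seen. Python 3.11.15 and matplotlib 3.10.9 drew the figures. Lists of lymphocyte, dendritic cell, neuron, astrocyte, oligodendrocyte and endothelial markers were also examined, with results in the last part. Of the partner and marker genes, 2 are not reported here and were left out of the counts.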

Additional observations from a re-analysis of the deposited data

Results flagged for a closer look

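Within the 40 sets of 4 libraries (10 genes in 4 groups), 2 held a library far from the other 3 on the log2(value + 1) scale, where chance gives about 1 in 20. Itgax in female control replicate 2 read 168, the lowest of its group, with the others at 375 to 438, and on the log2 scale the gap to the nearest took 0.839 of the group's range. On the values themselves it took 0.768, which does not reach the critical value for 4 libraries. Cst7 in male control replicate 3 read 459, the highest of its group, with the others at 315 to 333, and the gap took 0.852 of the range on the log2 scale and 0.875 on the values themselves. Both are control libraries, and in each case the treated libraries of that sex stayed above all controls.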

How the results depend on the processing

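All 10 members kept a higher level on PLX3397 in both sexes under the 28 alternatives run. Called members numbered 9 to 10 in males and 8 to 10 in females when single libraries were left out; the lost or gained calls, of Ank, Cd52 and Spp1, are given above. For Ank in males the limma adjusted p was also 0.0532 without the filter and 0.111 with the groups fitted alone. Over all genes, calls in males numbered 1518 without male control replicate 4 and male PLX3397 replicate 3, beside 2289, and 1724 to 2312 without single libraries. Calls of the difference between responses (0) became 1 with a pseudocount of 5, 2 without those 2 libraries and 0 to 6 without single libraries. Between sexes on control chow (13 calls) voom weights gave 7 and leaving out single libraries 11 to 20. On PLX3397 the 1064 calls between sexes became 669 without a filter, 606 with upper-quartile scaling, 465 with quantile normalisation, 571 with equal library totals, 44 with the groups fitted alone, 470 with voom weights, 345 without those 2 libraries and 332 to 1242 without single libraries, lowest without male PLX3397 replicate 2. In that comparison members called (0) became 1 with quantile normalisation, 1 with equal library totals and 3 with voom weights. The 4 other disease-associated genes called there became 2 with upper-quartile scaling, 1 with quantile normalisation, 2 with equal library totals, 0 with the groups fitted alone, 2 without those 2 libraries and 1 to 5 without single libraries. The cause of these shifts was not tested, apart from the fewer libraries of some.

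The replicate number did not pair samples: over 16 pairs of same-numbered libraries the correlation of deviations ran from -0.0446 to 0.0206, 0 pairs passed 0.1, and 2 of 16 libraries correlated best with their own number. With the replicate block, calls over all genes were 2136 in males, 962 in females and 863 between treated sexes, and member calls stayed at 10, 9 and 0. Depth limits low members most. By the rough estimate of depth, Gpnmb in controls rests on about 7.77 to 32.3 reads a library, and in female PLX3397 replicate 2 on about 23.9.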

Other observations

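Markers of further cell types gave these values in the same comparisons of PLX3397 with control chow. Their counts stand beside 815 genes called higher and 1474 lower of all 19594 in males, and 524 and 523 in females. Of 7 dendritic cell markers 1 rose and 2 fell in males and 0 rose and 2 fell in females, and Siglech, which microglia also express, was 99% of that list's signal. Of 6 astrocyte markers 2 rose in each sex, and Slc1a3 was 95.6% of the signal. Of 6 oligodendrocyte markers 1 rose and 1 fell in males and 1 rose and 0 fell in females. Mbp, which encodes myelin basic protein and is the tested gene nearest in profile to Cd52, was the one that rose in each sex. Of 5 endothelial markers 1 fell in each sex, and the sum was 966 to 1704 in male controls and 407 to 570.5 in males on PLX3397. No lymphocyte or neuron marker was called in either response by limma. Cd3e, which defines T cells, was at 0 in all 16 libraries.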
